A study of Mus musculus with 2 samples.

Results

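Fatty acid oxidation was followed through 36 listed genes for the activation, carnitine transfer, and mitochondrial and peroxisomal breakdown of fatty acids. The genes were chosen by name for their known role and matched by symbol to the Ensembl identifiers of the count table, where all 36 were found among 36227 genes. The mRNA came from mouse oocytes arrested at metaphase II, the stage at which they are ovulated, in a slimming group and a control group. Females of the outbred ICR strain, all obese by 12 weeks in standard housing, spent the next 4 weeks in EE (enriched environment) cages in the slimming group or in the normal cage in the control group, whose label also gives a standard diet. At 16 weeks, 3 naturally ovulated oocytes were taken from each of 3 mice per group. The 9 oocytes of a group were pooled in 1 tube, so each group is 1 library with no replicate, and every difference below compares 2 libraries and not the conditions. Oocytes of lean mothers that had never been obese were not analysed here.

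Beta-oxidation shortens a fatty acid from its carboxyl end in a repeated cycle of dehydrogenation, hydration, a second dehydrogenation and thiolysis, each turn releasing acetyl-CoA. Long chains are first coupled to coenzyme A, enter mitochondria as carnitine esters, and pass their electrons to the respiratory chain, while peroxisomes shorten very long and branched chains. In mouse oocytes, blocking carnitine-dependent entry is known to impair meiotic maturation, and the surrounding cumulus cells also oxidise fatty acids.

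Reads counted in genes numbered 20947962 for the slimming library, spread over 15831 genes, against 20242289 for the control library, spread over 16466 genes. Levels are given as CPM, counts per 1000000 counts of the library, and where no read was counted the level could still be up to 3 counts, which is 0.143 CPM in the slimming library and 0.148 CPM in the control library. The 12 oocyte markers all had counts, led by Gdf9 at 44674 CPM (slimming) and 45613 CPM (control) and H1foo at 42278 CPM (slimming) and 44923 CPM (control). They were not all level: after scaling, 5 of the 12 were lower in the slimming library. In that library 1, Zp3, was at least 2-fold higher (2450 CPM slimming, 1172 CPM control) and 0 were 2-fold lower. Markers of other cells were summed as well, and their part in the results was not tested. The 14 cumulus and granulosa markers summed to 41.2 CPM (slimming) and 54.7 CPM (control). Most of it came from Cyp19a1 (34.5 CPM slimming, 39.2 CPM control) and Nr5a2 (6.49 CPM slimming, 10.1 CPM control). Has2 had 5 counts (slimming) and 2 counts (control), and Fshr, Amh, Star, Ptx3, Ptgs2 and Foxl2 were at 0 in both. A further 5 had counts in the control library alone: Inha had 0 counts (slimming) and 63 counts (control), Cyp11a1 0 counts (slimming) and 17 counts (control), Inhba 0 counts (slimming) and 12 counts (control), and Tnfaip6 and Fst each 0 counts (slimming) and 8 counts (control). In all, 11 of the 14 were at 0 in the slimming library and 6 of the 14 in the control library. Immune markers summed to 25.8 CPM (slimming) and 45.7 CPM (control), led by H2-Aa (17.9 CPM slimming, 27.2 CPM control) and Cd68 (3.77 CPM slimming, 5.09 CPM control), with 7 of 11 at 0 in the slimming library and 1 of 11, Cd74, at 0 in both. The 8 oviduct markers summed to 6.44 CPM (slimming) and 13.1 CPM (control), led by Tppp3 (4.44 CPM slimming, 10.4 CPM control) and Dnah5 (1.24 CPM slimming, 0.741 CPM control), with Foxj1 at 0 in both. The 8 adipocyte markers summed to 5.35 CPM (slimming) and 7.95 CPM (control), led by Lipe (5.25 CPM slimming, 7.31 CPM control) and Adipoq (0 counts slimming, 7 counts control), with Plin1, Cfd, Lep and Cidec at 0 in both. Each of these 4 lists was thus lower in the slimming library.

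Of the 36 genes, 10 reached 10 CPM in at least 1 library, 12 reached 1 to 10 CPM, 10 stayed under 1 CPM and 4 were blank in both libraries, which was read as no count. Together they had 523 CPM (10957 counts) in the slimming library and 471 CPM (9542 counts) in the control library, which is 0.0523% and 0.0471% of those libraries. Log2 ratios are slimming over control after scaling, with a 95% interval that covers counting error only and not differences between mice. The sum had a log2 ratio of 0.12 (0.08 to 0.16), and 0.21 without Acsl3, the gene with the most counts. Acsl3 was lower in the slimming library, so its removal raises the ratio. Acat1 alone had 88.6 CPM (slimming) and 60.4 CPM (control), and the sum without Acat1 was not computed. The sum thus does not describe the members evenly. Of the 22 members that reached 1 CPM in at least 1 library, 14 had log2 ratios above 0 and 8 below. None of the 10 genes at or above 10 CPM reached a 2-fold difference, 0 of 10 higher beside 2.73% of all 5714 genes at that level and 0 of 10 lower beside 1.94%. The interval lay above a ratio of 1 for 4 of these 10 genes (Acat1, Hsd17b4, Acsl4 and Etfa), beside 37.7% of all genes, and below it for 2 (Cpt2 and Acsl3), beside 35.1%. Hsd17b4 passed the 10 CPM limit only through the slimming library, where it was higher. With the limit set on the mean of the libraries, 3 of 9 intervals lay above, beside 37.2% of all 5398 genes there. These counts are a description. The median log2 ratio of the 10 genes was 0.17, within a range of -0.21 to 0.60, beside 0.02 for all genes at that level. A 95% interval of this median, from the ranked ratios of the 10 genes, was -0.17 to 0.52. It covers the spread of these genes and not of mice. The genes are not replicates and were listed with earlier results of these data known, so the interval is no test of the set.

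**Figure D1:**
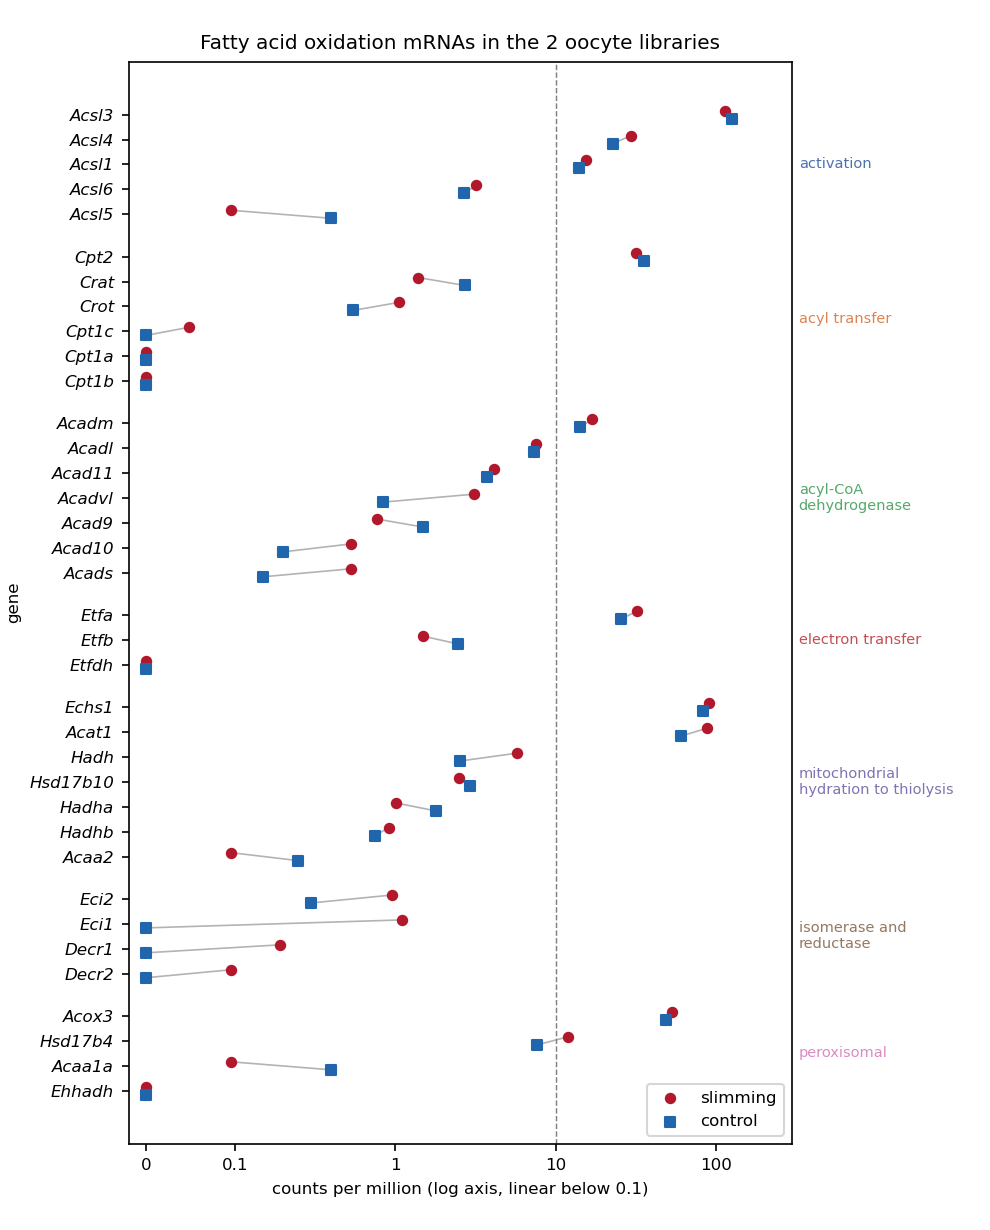
Level of each of the 36 genes (rows, grouped by role) in CPM on a log axis that is linear below 0.1, with circles for the slimming library, squares for the control library and a dashed line at 10 CPM. Acsl3, Echs1, Acat1 and Acox3 lie farthest to the right, and Cpt1a, Cpt1b, Etfdh and Ehhadh lie at 0 in both libraries.

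The first step, activation, was carried mostly by Acsl3. The Acsl enzymes couple long-chain fatty acids to coenzyme A, and ACSL3 sits on the endoplasmic reticulum and on lipid droplets. Acsl3 (ENSMUSG00000032883, chromosome 1) had 2407 counts (115 CPM) in the slimming library and 2568 counts (127 CPM) in the control library, for a log2 ratio of -0.17 (-0.25 to -0.09). That is 1.13-fold lower in the slimming library, with an interval that excludes equality. Acsl4 (ENSMUSG00000031278, chromosome X), whose enzyme prefers arachidonic acid, had 622 counts (29.7 CPM) in the slimming library and 460 counts (22.7 CPM) in the control library, for a log2 ratio of 0.35 (0.18 to 0.53). Acsl1 (ENSMUSG00000018796, chromosome 8), the main form in liver, fat and heart, had 324 counts (15.5 CPM) in the slimming library and 284 counts (14.0 CPM) in the control library, for a log2 ratio of 0.11 (-0.12 to 0.34). Acsl4 was therefore on the higher side and Acsl1 within counting error of equality. Acsl6, known from brain, had 67 counts (slimming) and 54 counts (control), and Acsl5, known from intestine, had 2 counts (slimming) and 8 counts (control). Summed over the 5 genes, activation stood at 163 CPM (slimming) and 167 CPM (control), for a log2 ratio of -0.06 (-0.13 to 0.01), with Acsl3 making up 70.3% (slimming) and 76.1% (control) of the sum.

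Carnitine transfer was uneven in these libraries: the inner-membrane enzyme was well covered and the outer-membrane enzyme was almost without counts. CPT1 forms the acylcarnitine at the outer mitochondrial membrane and is the main control point of entry. Its liver form Cpt1a and muscle form Cpt1b were blank in both libraries, and the brain form Cpt1c had 1 count (slimming) and 0 counts (control). Cpt1b shares 80.9% of its 35-base windows with the overlapping gene Gm44502, and the handling of reads with several matches is not known here, whereas Cpt1a shares 0%. Cpt2 (ENSMUSG00000028607, chromosome 4), which remakes acyl-CoA inside the mitochondrion, had 663 counts (31.6 CPM) in the slimming library and 727 counts (35.9 CPM) in the control library, for a log2 ratio of -0.21 (-0.37 to -0.06). Slc25a20, the carrier that exchanges acylcarnitines across the inner membrane, had 0 counts (slimming) and 2 counts (control); it was chosen after its value was seen. Crat, which makes acetylcarnitine, had 29 counts (1.38 CPM) in the slimming library and 55 counts (2.72 CPM) in the control library, for a log2 ratio of -0.99 (-1.71 to -0.33). Crot, the peroxisomal octanoyltransferase, had 22 counts (slimming) and 11 counts (control), for a log2 ratio of 0.89 (-0.19 to 2.11) that spans equality. The 6 genes summed to 34.1 CPM (slimming) and 39.2 CPM (control), for a log2 ratio of -0.23 (-0.38 to -0.08), of which Cpt2 made up 92.7% (slimming) and 91.7% (control).

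Among the acyl-CoA dehydrogenases, which carry out the first dehydrogenation for different chain lengths, the medium-chain gene was the most abundant and the very-long-chain gene differed most. Acadm (ENSMUSG00000062908, chromosome 3), the medium-chain enzyme, had 354 counts (16.9 CPM) in the slimming library and 286 counts (14.1 CPM) in the control library, for a log2 ratio of 0.23 (-0.0019 to 0.46). Its interval just reaches equality. Acadvl (ENSMUSG00000018574, chromosome 11), which acts on very long chains at the inner membrane, had 65 counts (3.10 CPM) in the slimming library and 17 counts (0.840 CPM) in the control library. This is 3.54-fold higher, for a log2 ratio of 1.82 (1.07 to 2.72). Dvl2, whose exons overlap Acadvl on the other strand, shares 30.41% of Acadvl's windows and had 1514 counts (slimming) and 1705 counts (control), for a log2 ratio of -0.25, and the use of strand in the counting is not known from the labels. Acadl, a long-chain enzyme, had 157 counts (slimming) and 149 counts (control), for a log2 ratio of -0.01 (-0.34 to 0.33) that turned to 0.03 when libraries were scaled by total count. Acad11, for long chains, had 87 counts (slimming) and 75 counts (control), for a log2 ratio of 0.13 (-0.33 to 0.60). The remaining members were sparse. Acad9, best known for assembling respiratory complex I, had 16 counts (slimming) and 30 counts (control), for a log2 ratio of -0.97 (-1.96 to -0.07). Acads, the short-chain enzyme, had 11 counts (slimming) and 3 counts (control), and Acad10 had 11 counts (slimming) and 4 counts (control). The 7 genes summed to 33.5 CPM (slimming) and 27.9 CPM (control), for a log2 ratio of 0.23 (0.07 to 0.40).

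**Figure D2:**
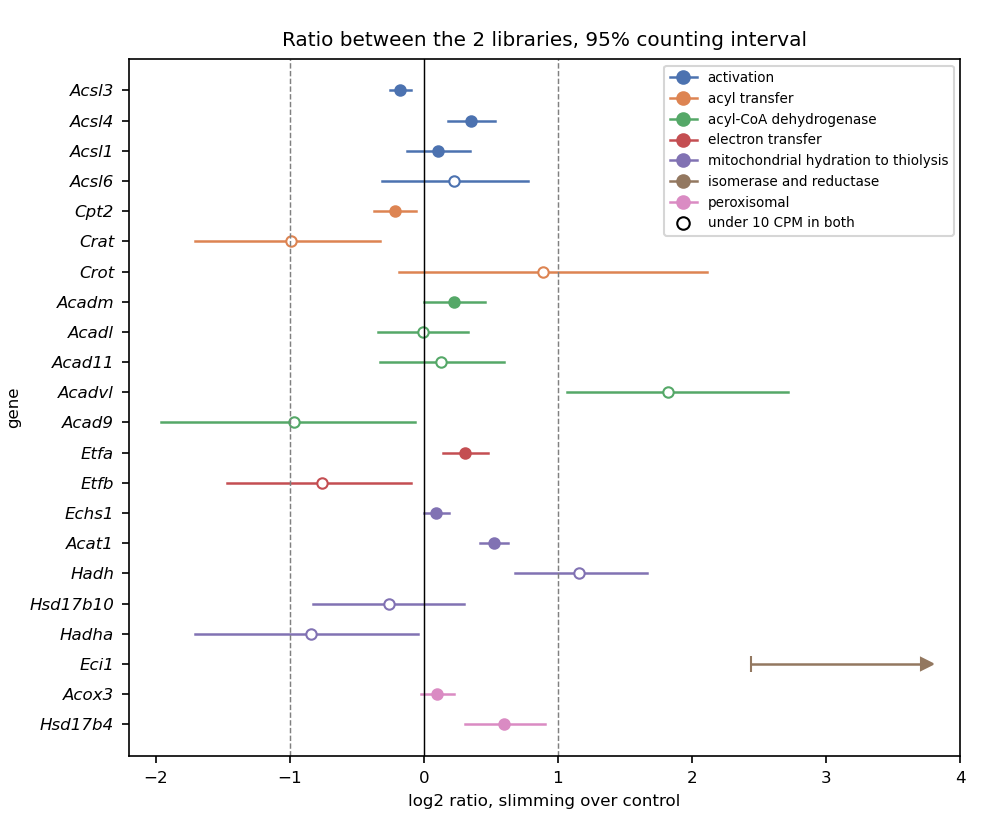
Log2 ratio of slimming over control for the 22 genes that reached 1 CPM in at least 1 library, coloured by role, with 95% counting intervals, dashed lines at 2-fold and open symbols for genes under 10 CPM in both. Acadvl, Hadh and Eci1 lie beyond the upper dashed line, and Eci1 is drawn as an arrow from its lower bound because the control library had 0 counts.

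The electron-transfer flavoprotein takes the electrons of these dehydrogenases and is a dimer of the products of Etfa and Etfb. Etfa (ENSMUSG00000032314, chromosome 9) had 678 counts (32.4 CPM) in the slimming library and 517 counts (25.5 CPM) in the control library, for a log2 ratio of 0.31 (0.14 to 0.48). Etfb (ENSMUSG00000004610, chromosome 7) had 31 counts (1.48 CPM) in the slimming library and 50 counts (2.47 CPM) in the control library, for a log2 ratio of -0.76 (-1.47 to -0.10). The subunits thus lay on opposite sides of equality with intervals that do not overlap. Per kilobase of the longest transcript, Etfa exceeded Etfb 14.0-fold in the slimming library and 6.63-fold in the control library. Etfb shares 61.05% of its windows with the overlapping gene Gm45233 and Etfa shares 9.28% with copies such as Gm15285, so both counts are uncertain, Etfb's more so. Etfdh, which passes the electrons on to ubiquinone, was blank in both libraries although it shares 0% of its windows. The promoter windows of the subunit genes are shown because the transcripts of 1 dimer stood at unequal levels. Each is the 250 bases before the RefSeq start in GRCm38.p6, 5′ to 3′ on the gene's strand, with capitals marking, on either strand, the CCAAT box, the GC box of the letters GGGCGG, and AGGTCA, the core site of many nuclear receptors.
Etfa (chr9:55512244-55512493, minus strand): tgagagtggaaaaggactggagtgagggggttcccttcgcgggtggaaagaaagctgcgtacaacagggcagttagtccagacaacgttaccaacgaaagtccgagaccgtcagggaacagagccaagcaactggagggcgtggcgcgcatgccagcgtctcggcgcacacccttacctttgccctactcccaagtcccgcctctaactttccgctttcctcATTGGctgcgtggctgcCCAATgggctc
Etfb (chr7:43443822-43444071, plus strand): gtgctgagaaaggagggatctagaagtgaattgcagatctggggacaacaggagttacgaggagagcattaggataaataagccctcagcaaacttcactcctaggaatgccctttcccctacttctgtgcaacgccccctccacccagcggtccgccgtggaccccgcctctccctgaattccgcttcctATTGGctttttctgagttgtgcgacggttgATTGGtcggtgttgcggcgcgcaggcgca
Both windows hold more than 1 CCAAT box close to the start, on 1 strand or the other, and neither holds the GC box or the nuclear receptor core site.

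Downstream, from hydration to thiolysis, the summed level was 190 CPM in the slimming library and 152 CPM in the control library, for a log2 ratio of 0.29 (0.22 to 0.36). Most of the level came from Echs1 and Acat1, but the difference came mainly from Acat1, since the interval of Echs1 just reaches equality. The sum of this step without Acat1 was not computed. Echs1 (ENSMUSG00000025465, chromosome 7), the short-chain enoyl-CoA hydratase, had 1915 counts (91.4 CPM) in the slimming library and 1697 counts (83.8 CPM) in the control library, for a log2 ratio of 0.09 (-0.0014 to 0.19). Acat1 (ENSMUSG00000032047, chromosome 9), a thiolase that also serves ketone body and isoleucine metabolism, had 1857 counts (88.6 CPM) in the slimming library and 1222 counts (60.4 CPM) in the control library. Of the members at or above 10 CPM its interval lay farthest from equality, at 1.44-fold higher in the slimming library (log2 0.52, 0.42 to 0.63), and it shares 0% of its windows with other genes. Hadh (ENSMUSG00000027984, chromosome 3), the short-chain hydroxyacyl-CoA dehydrogenase, had 121 counts (5.78 CPM) in the slimming library and 51 counts (2.52 CPM) in the control library, 2.23-fold higher (log2 1.16, 0.68 to 1.67). Hsd17b10, a related dehydrogenase that is also part of mitochondrial RNase P, had 52 counts (slimming) and 59 counts (control), for a log2 ratio of -0.26 (-0.83 to 0.30). Acaa2, the mitochondrial thiolase for medium chains, had 2 counts (slimming) and 5 counts (control).

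The trifunctional protein, which carries out hydration, dehydrogenation and thiolysis of long chains at the inner membrane, is encoded by Hadha and Hadhb, and both were low. Hadha (ENSMUSG00000025745, chromosome 5) had 21 counts (1.00 CPM) in the slimming library and 36 counts (1.78 CPM) in the control library, for a log2 ratio of -0.84 (-1.71 to -0.04). Hadhb (ENSMUSG00000059447, chromosome 5) had 19 counts (slimming) and 15 counts (control), for a log2 ratio of 0.25 (-0.79 to 1.34). The intervals overlap, so a difference between the subunits was not detectable at this depth. Hadhb shares 61.07% of its windows with other genes, among them Gm13910, which had 14 counts (slimming) and 4 counts (control). The pair is divergent: the RefSeq starts lie 273 bases apart on opposite strands. Only bases in both genes' 250-base windows were searched, and the longest stretch there without annotated exons is 68 bases long. It is shown because both subunit genes are read outward from it, with capitals for GGGCGG.
Hadha and Hadhb, between the starts (chr5:30155163-30155230, plus strand): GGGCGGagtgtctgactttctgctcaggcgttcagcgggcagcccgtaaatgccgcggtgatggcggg

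Fatty acids with double bonds need auxiliary enzymes before the cycle can go on: ECI1 and ECI2 shift the double bond, and DECR1 (mitochondria) and DECR2 (peroxisomes) reduce dienoyl-CoA. All 4 were low, and each had more counts in the slimming library. Eci1 (ENSMUSG00000024132, chromosome 17) had 23 counts (1.10 CPM) in the slimming library and 0 counts in the control library. With the 23 counts taken as they stand and the control library set to a floor of 3 counts, it was at least 7.25-fold higher. The counting interval, which also allows for error in the 23 counts, has the lower bound of log2 2.44. Eci2 had 20 counts (slimming) and 6 counts (control), for a log2 ratio of 1.58 (0.29 to 3.26). Decr1 had 4 counts (slimming) and 0 counts (control), and Decr2 had 2 counts (slimming) and 0 counts (control). Their counting intervals reach down to log2 -0.68 (Decr1) and -2.49 (Decr2) and so span equality. The 4 genes together had 49 counts in the slimming library and 6 counts in the control library. With so few counts in 1 pool of oocytes each, variation between amplified libraries cannot be told apart from a difference between groups.

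Peroxisomal oxidation was represented mainly by Acox3. Acox3 (ENSMUSG00000029098, chromosome 5), an acyl-CoA oxidase for branched chains, had 1123 counts (53.6 CPM) in the slimming library and 990 counts (48.9 CPM) in the control library, for a log2 ratio of 0.10 (-0.02 to 0.23). Hsd17b4 (ENSMUSG00000024507, chromosome 18), the D-bifunctional hydratase and dehydrogenase, had 249 counts (11.9 CPM) in the slimming library and 155 counts (7.66 CPM) in the control library. This is 1.52-fold higher (log2 0.60, 0.31 to 0.90), the highest ratio among the members that reached 10 CPM, a limit it passed only through the slimming library. Ehhadh, the L-bifunctional enzyme, was blank in both. Acaa1a, the peroxisomal thiolase, had 2 counts (slimming) and 8 counts (control), but 43.51% of its windows are shared, chiefly with its copy Acaa1b, which had 96 counts (slimming) and 16 counts (control). Acaa1b in turn overlaps Dlec1, with 120 counts (slimming) and 20 counts (control), so the reads of these neighbours cannot be assigned to 1 gene; both were chosen after their values were seen. The 4 peroxisomal members summed to 65.6 CPM (slimming) and 57.0 CPM (control), for a log2 ratio of 0.17 (0.06 to 0.29).

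**Figure D3:**
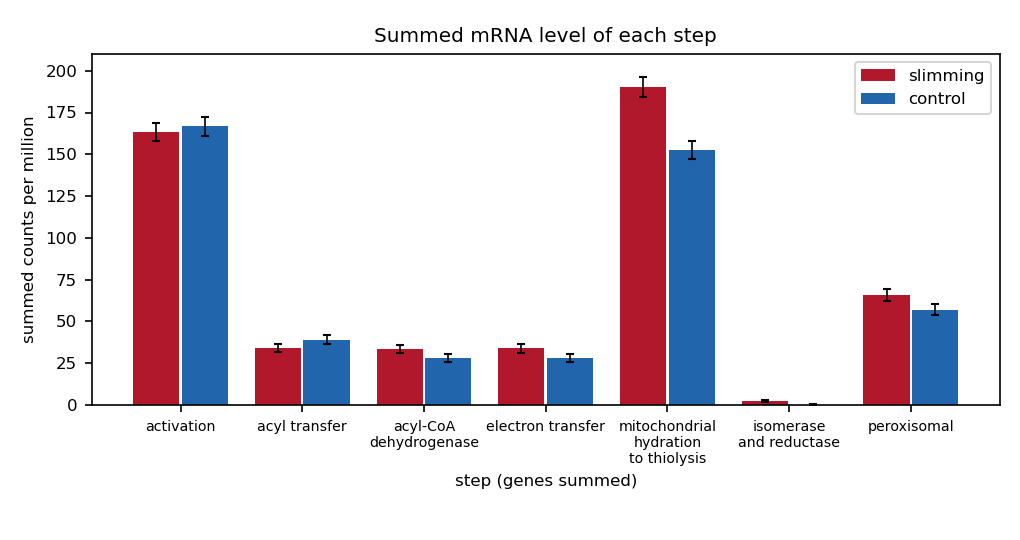
Summed level of the genes of each step in CPM, with slimming bars left of control bars and whiskers for the 95% Poisson counting interval of each sum. The sum from hydration to thiolysis was higher in the slimming library, at 190 CPM against 152 CPM in the control library. In this sum Acat1 alone had 88.6 CPM (slimming) and 60.4 CPM (control). Acyl transfer was lower in the slimming library, at 34.1 CPM against 39.2 CPM in the control library. Bars of different steps are not scaled for gene length.

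Between genes, levels were compared per kilobase of the longest protein-coding transcript, which is approximate because the cDNA was primed from the poly(A) end. In the slimming library the order was led by Echs1 at 58.7 CPM per kilobase, Acsl3 at 29.1, Acat1 at 26.0 and Etfa at 23.3. In the control library Echs1 led at 53.8 CPM per kilobase, followed by Acsl3 at 32.1, Etfa at 18.3 and Acat1 at 17.7. Echs1 was thus first and Acsl3 next in both libraries, and Etfa and Acat1, which lie close together, changed places. Among the lowest of the members with at least 1 CPM, Acad9 had 0.194 CPM per kilobase (slimming) and 0.377 CPM per kilobase (control), and Hadha had 0.250 CPM per kilobase (slimming) and 0.443 CPM per kilobase (control).

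The differences of at least 2-fold came from genes of low count. With the limit lowered to 1 CPM, 22 members qualified, and 3 of them (Acadvl, Hadh and Eci1) were at least 2-fold higher, 13.6% beside 9.43% of all 11010 genes at that level, while 0 of 22 were lower beside 8.96%. Acadvl and Eci1 passed that limit only through the slimming library, where they were higher, as did Crot, while Acad9 passed it only through the control library, so the counts at this limit support nothing by themselves. At a mean level of 1 to 10 CPM, 2 of 11 members were at least 2-fold higher, beside 13.4% of all genes there, and 0 of 11 lower, beside 12.7%. Intervals lay above equality for 7 of the 22 members, 31.8% beside 33% of all genes, and below for 6, 27.3% beside 31.7%. The members' shares by interval thus lay near those of all genes. Among the members at 10 CPM the lowest log2 ratio was -0.21, well short of 2-fold lower. That 0 members were 2-fold lower at the limit of 1 CPM rests on the exact cutoff. Crat (log2 -0.99) and Acad9 (log2 -0.97) lay just short of it. Under an alternative scaling by upper-quartile factors they passed it, at -1.04 and -1.01. The authors' deposited table marks 7 of 29 members with a p-value as higher in the slimming library at its threshold of 0.001, beside 19.4% of all genes with one. It marks 1 member, Acsl3, as lower, beside 16.5%, and these p-values of the authors' deposited table compare reads of 2 libraries.

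**Figure D4:**
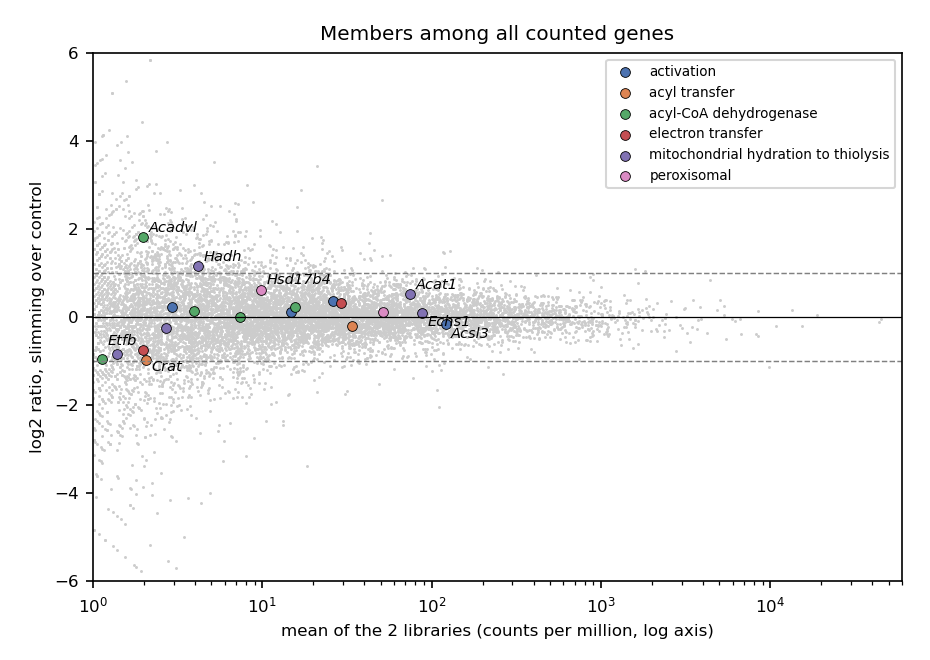
Log2 ratio of slimming over control against the mean CPM of the libraries on a log axis, for all genes with a mean of at least 1 CPM and counts in both (grey) and the members (coloured by role), with dashed lines at 2-fold. The members lie within the grey cloud, which widens towards low levels where Acadvl and Hadh sit.

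The promoter windows of Acadvl, Hadh and Eci1 are shown because these 3 were past 2-fold among the members that reached 1 CPM. Some members under 1 CPM had wider ratios than Hadh, from few counts. Strand and capital rules are as above. Eci1's window ends 43 bases before its start.
Acadvl (chr11:70015429-70015678, minus strand): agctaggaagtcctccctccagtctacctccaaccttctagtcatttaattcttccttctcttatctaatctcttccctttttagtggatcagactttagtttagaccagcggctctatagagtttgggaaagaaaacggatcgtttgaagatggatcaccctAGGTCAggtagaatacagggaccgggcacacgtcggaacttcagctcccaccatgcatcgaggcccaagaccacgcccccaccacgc
Hadh (chr3:131272102-131272351, minus strand): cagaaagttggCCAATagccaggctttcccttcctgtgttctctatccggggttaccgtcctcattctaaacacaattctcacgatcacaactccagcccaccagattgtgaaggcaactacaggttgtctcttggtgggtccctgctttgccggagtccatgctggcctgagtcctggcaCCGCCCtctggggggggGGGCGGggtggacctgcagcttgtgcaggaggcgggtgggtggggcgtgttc
Eci1 (chr17:24426433-24426640, plus strand): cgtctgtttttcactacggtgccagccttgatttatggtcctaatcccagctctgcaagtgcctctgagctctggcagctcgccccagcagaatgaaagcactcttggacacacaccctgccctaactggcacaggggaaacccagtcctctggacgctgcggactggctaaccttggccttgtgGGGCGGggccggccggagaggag
The windows differ in what they hold: Acadvl has 1 nuclear receptor core site, Hadh has the CCAAT box and the GC box, and Eci1 has the GC box. Across the members, 29 of 36 genes had a window in the RefSeq table, 32 windows in all, searched on both strands beside all 32851 windows of the same length. The GC box was in 75% of the members' windows and in 32.7% of all windows. The CCAAT box was in 53.1% of the members' windows and in 33.8% of all, and the core site AGGTCA was in 18.8% of the members' windows and in 14% of all. The TATA box, TATAAA, was in 0 of 32 member windows and in 12.4% of all windows. The extended site TCAAGGTCA of estrogen-related receptors, which contains that core site, was in 1 member window (Acsl6) and in 0.387% of all. These matches describe the letters in these windows.

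Around the members, 70 further genes of fatty acid handling were listed (uptake, ketone bodies, other mitochondrial and peroxisomal enzymes, regulators), of which 27 reached 10 CPM and 10 were blank. Of the 27, 1 was at least 2-fold higher, 3.7% beside 2.73% of all genes, and 0 were lower beside 1.94%. Intervals lay above equality for 8, 29.6% beside 37.7%, and below for 10, 37% beside 35.1%, and the median log2 ratio was -0.05. The gene past 2-fold was Acacb (ENSMUSG00000042010, chromosome 5), whose enzyme makes the malonyl-CoA that inhibits CPT1. It had 239 counts (11.4 CPM) in the slimming library and 44 counts (2.17 CPM) in the control library, 5.09-fold higher (log2 2.35, 1.89 to 2.86). Acacb passed the limit through the slimming library alone. The genes of the list with the highest CPM differed less. Pecr, a peroxisomal enoyl-CoA reductase, had 647 CPM (slimming) and 583 CPM (control), and Dbi, which binds acyl-CoA, had 554 CPM (slimming) and 488 CPM (control), at log2 ratios of 0.12 and 0.15. Nudt7, a peroxisomal coenzyme A hydrolase, had 186 CPM (slimming) and 151 CPM (control), for a log2 ratio of 0.27. Abcd4, a transporter of the ABCD family, had 141 CPM (slimming) and 81.9 CPM (control), for a log2 ratio of 0.76 (0.67 to 0.84), and Acbd3, a Golgi protein with an acyl-CoA-binding domain, had 101 CPM (slimming) and 148 CPM (control), for a log2 ratio of -0.59 (-0.67 to -0.51). These lay on opposite sides of equality. Oxct1, which activates ketone bodies, Acadsb, which acts on short branched chains, and the transcription factor Nrf1 had log2 ratios of -0.13, 0.07 and -0.17.

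Regulators of this pathway were mixed, and the following genes were chosen after their values were seen. Ppard, a nuclear receptor that induces oxidation genes, had 523 counts (slimming) and 657 counts (control), for a log2 ratio of -0.41 (-0.58 to -0.24). Esrra had 209 counts (slimming) and 205 counts (control), and the coactivator Ppargc1b had 342 counts in each library, while Ppargc1a was blank in both and Ppara had 10 counts (slimming) and 7 counts (control). Sirt3, the mitochondrial deacetylase that acts on several oxidation enzymes, had 126 counts (6.01 CPM) in the slimming library and 58 counts (2.87 CPM) in the control library, for a log2 ratio of 1.03 (0.58 to 1.51). On the other side, Rxrb, a partner of the PPAR receptors, had 56 counts (slimming) and 110 counts (control), for a log2 ratio of -1.05 (-1.55 to -0.58), and Lpin1, a phosphatidate phosphatase and coactivator, had 37 counts (slimming) and 71 counts (control), for a log2 ratio of -1.01 (-1.64 to -0.43). Rxra and Pparg had log2 ratios of -0.57 (-0.90 to -0.26) and -0.45 (-0.78 to -0.12). The fatty acid receptor Cd36 had 7.21 CPM (slimming) and 12.4 CPM (control), for a log2 ratio of -0.81 (-1.11 to -0.52).

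How far an empty entry speaks for an absent mRNA is limited by the table. Of 19753 protein-coding genes, 29.1% were blank in both libraries. Gapdh, used by every cell, had 3 counts (slimming) and 4 counts (control), with 61.68% of its windows shared with other genes, whereas the respiratory subunit Sdha had 5802 counts (slimming) and 6808 counts (control); both genes were chosen after their values were seen. Of the 4 blank members, Cpt1b shares most of its windows, but Cpt1a and Etfdh share 0% and Ehhadh 0.03%. For those 3, shared sequence in the protein-coding transcripts is thus absent or nearly absent. Over all its annotated exons, Etfdh overlaps 4930579G24Rik on the other strand by 278 bases. Fewer molecules per oocyte and a lower yield in amplification cannot be told apart here.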

How the data were processed

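Polyadenylated mRNA of 9 pooled oocytes per group was amplified and sequenced on a SOLiD instrument, per the labels' protocols, without molecular identifiers. The authors deposited raw read counts per Ensembl gene, with the slimming library first per the file headers. The deposited log2 ratio, score (a z-score) and p-value and q-values compare the reads of the 2 libraries. The submitters' processing notes name build mm9. No aligner, counter, strand setting or handling of multiple matches is given in the sources used here.

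Symbols came from GENCODE vM21 by Ensembl identifier. Scaling used edgeR 4.0.16 (R 4.3.3), whose TMM factors were 1.01 for slimming and 0.989 for control, and DESeq2 1.42.0 gave alternative size factors. Ratios used counts plus 0.5. Intervals are exact Clopper-Pearson at 95% (scipy 1.17.1, Python 3.11.15, pandas 2.3.3, numpy 2.4.6), and counting error is all they cover. Plots used matplotlib 3.10.9. Shared sequence is the share of 35-base windows of a gene's protein-coding transcripts found in transcripts of other genes, in GRCm38. Since each group was 1 library, the groups were not tested; calculations were tested on simulated data.

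Every member is given with its values. Of the other pathway genes the 8 with the highest CPM and each one past 2-fold with at least 10 CPM are named, and of each marker list at least the 2 most abundant. The members, lists and rules were chosen with earlier results of these data known.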

Additional observations from a re-analysis of the deposited data

How the results depend on the processing

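No paired analysis was possible because each group is 1 library. Counts of members depended on the filter: 3 were at least 2-fold higher at 1 CPM (9.43% of all genes) and 9 with no filter (17.7% of all 18017 genes), where 3 were lower (20.9%), and 1 was at least 1.5-fold higher (10.3%). Intervals above equality numbered 7 with scaling by total count (41.1% of all genes), 7 at 1 CPM (33%) and 8 with no filter (23%), and intervals below it 6 at 1 CPM (31.7%) and 6 with no filter (23.1%). The summed log2 ratio was 0.073 with upper-quartile factors and 0.21 without Acsl3. Removal of Acat1, which was higher in the slimming library, was not tried. Other pathway genes at least 2-fold higher numbered 3 at 1 CPM, 5 with no filter, 0 at a mean of 10 CPM (1.93% of all genes) and 3 at 1.5-fold, and those lower 2 at 1 CPM (8.96%), 7 with no filter and 3 at 1.5-fold (7.16%); the other shares are as for the members. The cause was not tested beyond the number of genes each filter admits. The members' median log2 ratio stayed positive, 0.11 to 0.23, over 8 alternatives, which all use the same 2 libraries. Of 88 values of single members, 2 changed sign, both for Acadl (0.03 with scaling by total count, 0.01 with DESeq2 size factors). Scaling moved the median of all genes between -0.03 and 0.05. Under about 30 counts, depth limits each ratio to a wide interval, and no replicate shows the spread between mice.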
